A study of Danio rerio with 6 samples.

Results

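The genes described here are the Wnt ligands, their receptors, their inhibitors and the core parts of the pathway in intestinal epithelial cells of the zebrafish. They were taken by gene name. Names that start with wnt and a digit, fzd, sfrp, dkk, axin or rspo were included, as were lrp5, lrp6, lef1, tcf7, tcf7l1a, tcf7l1b, tcf7l2, ctnnb1, ctnnb2, apc, gsk3ba, gsk3bb, rnf43, znrf3, lgr4, lgr5, lgr6, notum1a, notum1b, porcn, wls, nkd1, sp5a, sp5l, ror2 and wif1. This gave 77 of the 32520 genes in the files. The names tcf7l1a, gsk3ba, rnf43, lgr5, notum1a and sp5a matched 0 genes in the gene name table used, so those genes are not described under these names. Many names in that table are written in the human style, and 18 of the Wnt genes share a symbol with another gene. Ensembl IDs are given where a shared symbol would be ambiguous.

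RNA-seq was measured at 3 and 5 days post fertilization (dpf), with 3 libraries at each age. Larvae of both ages carried TgKI cldn15la-tdTomato, a knock-in that places a red fluorescent protein at cldn15la, which encodes a tight junction claudin of the gut lining. Each library came from a pool of larvae whose heads had been taken off, and live tdTomato-positive cells were sorted by flow cytometry from the rest of the body. The library titled 3 dpf replicate 3 has 4 dpf in its treatment field, and its title decided the group used here. No drug or mutation is named for either age, and all 6 libraries carry batch 1. The question was which transcripts change as the gut epithelium matures between these ages.

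Wnt proteins are lipid-modified ligands. Porcupine (PORCN) attaches the lipid, and Wntless (WLS) carries the ligand to the cell surface, where it binds a Frizzled receptor together with LRP5 or LRP6. In the absence of ligand, a complex built on Axin and APC with the kinase GSK3 marks beta-catenin for destruction. With ligand, beta-catenin accumulates and works with TCF/LEF factors on target genes. R-spondins and their LGR receptors raise the number of Frizzled receptors at the surface by holding back the ubiquitin ligases ZNRF3 and RNF43. Secreted Frizzled-related proteins (SFRP), Dickkopf proteins (DKK), WIF1 and Notum act on the ligand or its receptors from outside the cell. In the mammalian intestine the pathway maintains the stem cells of the crypts. The adult zebrafish gut has folds with dividing cells at their base and no crypts.

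Library totals ran from 102653637 to 125456069 counts. Counts from mitochondrial genes made up 7.91 to 11.4% of 5 of the libraries and 29.2% of 5 dpf replicate 1, which also had the lowest TMM scaling factor (0.612, against 1.001 to 1.266). Gut epithelium markers were present at both ages: all 12 were tested, and their summed level was 6042 to 7047 CPM (counts scaled to library size and the TMM factor) at 3 dpf and 9207 to 24320 CPM at 5 dpf. The most abundant of them, chia.2, had a mean of 2121 CPM over the 6 libraries. Its log2 fold change was 7.49 (edgeR adjusted p = 0.00504), while 3 of the 12 markers fell, so the sums do not measure the amount of epithelium. The level of cldn15la itself was 682.2, 690.4 and 524.7 CPM in the 3 dpf libraries and 900.4, 456.7 and 347 CPM in the 5 dpf libraries, so the ages overlapped.

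Most Wnt genes did not pass the test between the ages, and those that did went both ways. Of the 77 genes, 64 passed the filter on low counts. In edgeR's quasi-likelihood test, adjusted over all genes by Benjamini-Hochberg with a threshold of 0.05, 12 rose and 12 fell, and 40 did not pass. Over all 22386 genes tested, 18.1% rose and 14.1% fell. The median log2 fold change from 3 to 5 dpf was 0.32 over the Wnt genes tested and 0.09 over all genes tested. The 3 libraries of an age did not overlap those of the other age for any of the 24 genes that passed. Passing the test itself selects for such a gap, and the share over all genes was not counted.

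Among the ligands, R-spondins and secreted inhibitors, 30 of 42 genes were tested, 10 rose and 2 fell, with a median log2 fold change of 1.47. Among all other Wnt genes, 34 of 35 were tested, 2 rose and 10 fell, with a median of -0.29. The genes were also divided by their level. Of the 27 Wnt genes with a mean of 5 CPM or more, 1 rose and 12 fell, and the median was -0.68. Of all 12032 genes tested at that level, 14.5% rose and 23.3% fell. Of the 37 Wnt genes tested below 5 CPM, 11 rose and 0 fell, and the median was 1.36. Of all 10354 genes tested at that lower level, 22.2% rose and 3.34% fell. Medians over all genes at each level are not given. The 10 ligand and secreted inhibitor genes that rose all had a mean below 5 CPM, so the divisions by role and by level overlap. The value of 5 CPM was chosen after the levels were seen. The filter on low counts can be passed through the libraries of a single age. Of the genes that rose, dkk2 and SFRP1 (ENSDARG00000057678) passed it through 5 dpf. The 3 dpf libraries alone would also not have kept wnt2, which had 3 counts in 3 dpf replicate 1. The same holds for genes without a call, such as WNT3A, WNT4, WNT6 and RSPO1, each with fewer than 10 counts in a 3 dpf library. The counts and medians above include these genes, so they rest in part on genes kept only with the 5 dpf libraries. The 13 genes that were not tested had less than 1 CPM in every library.

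The counts of Wnt genes that passed depended on single libraries, as did those over all genes. Over all genes 7194 were called, against 10628 without 5 dpf replicate 1. Without 3 dpf replicates 1, 2 and 3 in turn, 3003, 3590 and 5293 were called. Without 5 dpf replicates 2 and 3 in turn, 5178 and 5311 were called. Without 5 dpf replicate 1, 27 Wnt genes rose and 15 fell, and the 24 genes were among them. Without 3 dpf replicate 1, 4 rose and 1 fell, and without 3 dpf replicate 2, 4 rose and 2 fell. The counts higher at 5 dpf were 5, 5 and 6 without 3 dpf replicate 3, 5 dpf replicate 2 and 5 dpf replicate 3, and without the last of these 7 fell. The direction of each of the 24 genes was the same in all of these fits. Scaled by library size alone, 9 of the 24 kept their calls, and with upper quartile scaling 18 did, 12 higher and 6 lower. Of the calls over all genes 56.2% were higher, against 65.3% under each of these scalings. With a replicate block 15 of the 24 kept their calls. The losses given below for single genes cover only the fits with a library left out. They leave out losses under other scalings, filters or the block.

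**Figure D1:**
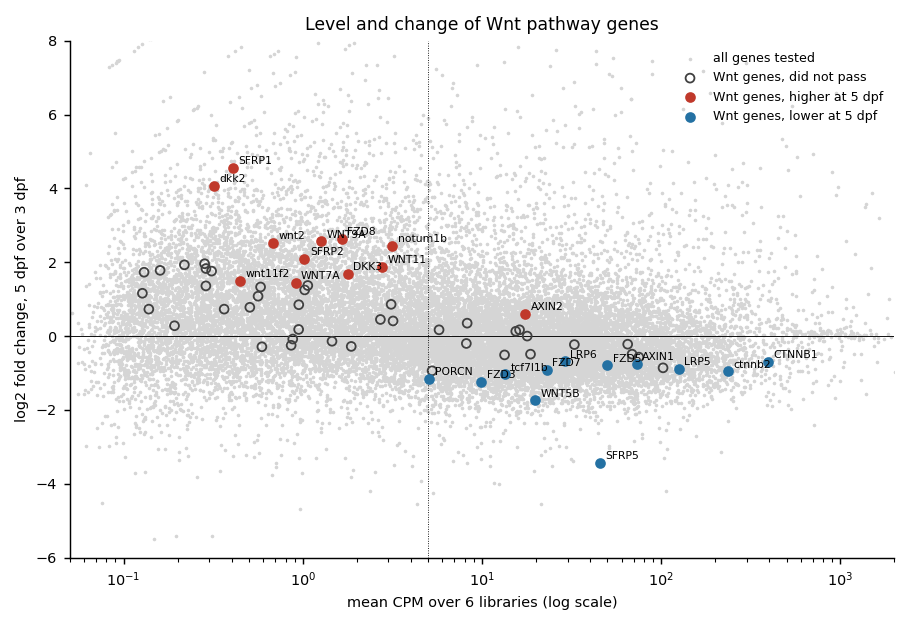
Mean level over the 6 libraries (CPM, log axis) against the log2 fold change from 3 to 5 dpf, with all genes tested as grey dots, Wnt genes that rose in red, those that fell in blue and those that did not pass as open circles. The dotted line stands at 5 CPM, genes outside the axis ranges are not drawn, and of the Wnt genes that rose AXIN2 alone lies above the line, where all 12 that fell lie.

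Of the 26 ligand genes, 17 were tested, 5 rose and 1 fell. The shares over all genes tested were 18.1% higher and 14.1% lower, and below a mean of 5 CPM 22.2% and 3.34%. The ligand counts were not tested against these shares. WNT5B, a ligand that acts mainly without beta-catenin, was the most abundant ligand per length, with 9.58 FPKM (fragments scaled to library size and exon length) over the 6 libraries, and no other ligand exceeded 1.28 FPKM. Its level was 35.7, 35.1 and 20.5 CPM in 3 dpf replicates 1, 2 and 3 and 5, 11.2 and 11.2 CPM at 5 dpf. All 3 libraries at 3 dpf lay above those at 5 dpf, with 5 dpf replicate 1 lowest. WNT5B fell by 1.74 on the log2 scale (SE 0.37, edgeR adjusted p = 0.0122). The gene lies on chromosome 4 of GRCz11 from 8532580 to 8663117.

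WNT11 moved the other way. It lies on chromosome 10 from 32104305 to 32123204 and was measured at 1.12, 1.33 and 1.13 CPM at 3 dpf and, at 5 dpf, 3.68, 4.73 and 4.69 CPM. The libraries of each age lay close together, and the log2 fold change was 1.88 (SE 0.27, edgeR adjusted p = 0.00389). The call for WNT11 held in all 15 alternative fits.

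Of the other ligands that rose, WNT9A was at 0.391, 0.415 and 0.294 CPM at 3 dpf and, at 5 dpf, 0.694, 3.45 and 2.36 CPM. The log2 fold change was 2.57 (SE 0.60, edgeR adjusted p = 0.0163). The 5 dpf libraries were spread, with replicate 1 nearest to the younger age. The level of wnt2, a ligand that signals through beta-catenin, was 0.0286, 0.301 and 0.27 CPM at 3 dpf and, at 5 dpf, 1.22, 1.25 and 1.01 CPM. Its log2 fold change was 2.52 (SE 0.73, edgeR adjusted p = 0.0345), and the lowest value, in 3 dpf replicate 1, was at the level that 3 counts give in that library (0.0286 CPM). WNT7A (ENSDARG00000044827) was at 0.649, 0.486 and 0.342 CPM at 3 dpf and, at 5 dpf, 0.956, 1.38 and 1.65 CPM. The log2 fold change was 1.44 (SE 0.42, edgeR adjusted p = 0.0358). For wnt11f2, the mean was 0.234 ± 0.0296 CPM at 3 dpf and 0.663 ± 0.176 CPM at 5 dpf (SD, n = 3 libraries), with a log2 fold change of 1.50 (SE 0.44, edgeR adjusted p = 0.0366).

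In GRCz11, WNT9A lies on chromosome 2 from 3201345 to 3271007 and wnt2 on chromosome 18 from 20613241 to 20636549. WNT7A (ENSDARG00000044827) lies on chromosome 11 from 27486584 to 27501027 and wnt11f2 on chromosome 5 from 36513605 to 36520117. Among the ligand calls, WNT5B lost its call without 3 dpf replicate 1 (edgeR adjusted p = 0.0529) and WNT9A without any of the 3 dpf libraries (0.0672, 0.0581 and 0.0624) or 5 dpf replicate 2 (0.0552). The call of wnt2 needed each of 3 dpf replicates 2 and 3 (0.0703 and 0.0771 without them) and of 5 dpf replicates 2 and 3 (0.0803 and 0.0701). For WNT7A (ENSDARG00000044827) and wnt11f2 the call was lost without any single library except 5 dpf replicate 1, with adjusted p from 0.0537 to 0.136.

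The 11 ligands that were tested and did not pass had log2 fold changes of 0.73 to 1.83 and means below 5 CPM. Of all genes tested at that level, 22.2% rose and 3.34% fell, and the share with a log2 fold change above 0 was not counted. WNT4 had the lowest edgeR adjusted p of the 11 ligands (0.0502, with a log2 fold change of 1.83). Without 5 dpf replicate 1 its log2 fold change was 2.14 (edgeR adjusted p = 0.0105). The ligands that were not tested included WNT1, wnt3, WNT8B, WNT10B and WNT16. The WNT8A pair on chromosome 14, whose genes lie 316 bases apart, had 0 counts in each of the 6 libraries. A count of 0 allows up to 3 counts, or 0.0211 to 0.0393 CPM depending on the library. Other ligand genes that lie within 100000 bases of each other are WNT10B and WNT1 on chromosome 23 (5136 bases between them), WNT6 and WNT10A on chromosome 9 (38466 bases) and WNT3A and WNT9A on chromosome 2 (42425 bases). Within these pairs WNT9A alone passed the test, while WNT3A, at 0.0607 ± 0.0792 CPM at 3 dpf and 0.199 ± 0.174 CPM at 5 dpf (SD, n = 3 libraries), did not.

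Of the 3 genes for ligand secretion, 1 fell and 2 did not pass. WLS was the most abundant of them per length (29.5 FPKM over the 6 libraries). It was at 96.6, 85.8 and 86.3 CPM at 3 dpf and, at 5 dpf, 44.8, 76.7 and 59.8 CPM. The ages did not overlap, but the log2 fold change of -0.57 (SE 0.23) did not pass (edgeR adjusted p = 0.0982). PORCN (ENSDARG00000052455, chromosome 8 from 22544290 to 22558773) was at 7.38, 7.81 and 5.81 CPM at 3 dpf and, at 5 dpf, 2.54, 3.41 and 3.47 CPM. It fell by 1.15 on the log2 scale (SE 0.25, edgeR adjusted p = 0.0134). Without 3 dpf replicate 1 or 2 its adjusted p was 0.0646 or 0.0602. The other PORCN gene (ENSDARG00000052558) was at 0.172 ± 0.0893 CPM at 3 dpf and 0.213 ± 0.168 CPM at 5 dpf (SD, n = 3 libraries) and did not pass.

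Of the 4 R-spondin genes 3 were tested, and 0 of these passed the edgeR test, while RSPO3 had an unadjusted p of 0.0179 and passed in DESeq2 (adjusted p = 0.0111). RSPO3, the most abundant of them per length (0.473 FPKM), was at 0.334, 0.822 and 0.62 CPM at 3 dpf and, at 5 dpf, 1.86, 1.05 and 1.7 CPM. The libraries did not overlap between the ages, and the log2 fold change was 1.37 (SE 0.46, edgeR adjusted p = 0.0538). RSPO1 and RSPO2 had log2 fold changes of 1.93 and 1.33, with overlapping ages. The overlap came through 5 dpf replicate 1, at 0.0917 and 0.367 CPM. Without that library their log2 fold changes were 2.38 and 1.69 (edgeR adjusted p = 0.0302 and 0.0223), and that of RSPO3 was 1.22 (0.0553). RSPO4 was not tested.

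Of the 12 secreted inhibitor genes, 10 were tested, 5 rose and 1 fell. The shares over all genes tested were 18.1% higher and 14.1% lower, and below a mean of 5 CPM 22.2% and 3.34%. The inhibitor counts were not tested against these shares. SFRP5, which lies on chromosome 13 from 39911551 to 39947335, had the largest decrease of all Wnt genes tested. This Frizzled-related protein was at 93.5, 98.8 and 56.3 CPM at 3 dpf and, at 5 dpf, 8.01, 4.14 and 10.9 CPM. The lowest 3 dpf library was far above the highest 5 dpf library. SFRP5 fell by 3.43 on the log2 scale (SE 0.41, edgeR adjusted p = 0.00233), and the call held in all 15 alternative fits. Per length it went from 41.9 ± 11.7 FPKM to 3.88 ± 1.71 FPKM (SD, n = 3 libraries), so at 3 dpf it was the most abundant secreted inhibitor.

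The secreted inhibitors that rose were all at low levels. For notum1b, a copy of the enzyme that takes the lipid off Wnt ligands, the level was 1.01, 0.769 and 1.15 CPM at 3 dpf and, at 5 dpf, 10.8, 2.85 and 2.4 CPM. Its log2 fold change was 2.44 (SE 0.62, edgeR adjusted p = 0.0214). The value in 5 dpf replicate 1 stood far above the rest, and without that library the log2 fold change was 1.42. DKK3 (ENSDARG00000070683), a divergent member of the Dickkopf family, was at 0.572, 0.911 and 1.04 CPM at 3 dpf and, at 5 dpf, 1.56, 3.38 and 3.21 CPM. The log2 fold change was 1.69 (SE 0.42, edgeR adjusted p = 0.0211). SFRP2 was at 0.343, 0.318 and 0.5 CPM at 3 dpf and, at 5 dpf, 0.511, 2.23 and 2.22 CPM, so 5 dpf replicate 1 nearly met the younger age. The log2 fold change was 2.09 (SE 0.60, edgeR adjusted p = 0.0335).

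The remaining secreted inhibitors that rose had a mean below 1 CPM at both ages. The mean of dkk2, whose product binds LRP5 and LRP6, was 0.0347 ± 0.0224 CPM at 3 dpf and 0.601 ± 0.204 CPM at 5 dpf (SD, n = 3 libraries). Its fitted log2 fold change was 4.07 (SE 0.71, edgeR adjusted p = 0.00637). SFRP1 (ENSDARG00000057678) went from 0.033 ± 0.016 CPM to 0.783 ± 0.543 CPM (SD, n = 3 libraries), with a fitted log2 fold change of 4.56 (SE 0.89, edgeR adjusted p = 0.00886). At 3 dpf both genes were close to the level that 3 counts give, so the size of these changes depends on a few counts. Each 3 dpf library held fewer than 10 counts of either gene, so both passed the filter on low counts through the 5 dpf libraries. WIF1, another inhibitor that binds the ligand, was at 2.21 ± 0.254 CPM at 3 dpf and 4.01 ± 1.32 CPM at 5 dpf (SD, n = 3 libraries) and did not pass (edgeR adjusted p = 0.0781). Without 5 dpf replicate 1 its log2 fold change was 1.09 (edgeR adjusted p = 0.009), against 0.86 with all libraries.

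These inhibitors lie in GRCz11 at chromosome 11 from 45244618 to 45248092 (notum1b), chromosome 25 from 16132580 to 16146851 (DKK3, ENSDARG00000070683), chromosome 1 from 25491324 to 25496133 (SFRP2), chromosome 1 from 50392716 to 50438247 (dkk2) and chromosome 10 from 20351413 to 20357013 (SFRP1, ENSDARG00000057678). The call of notum1b was lost without any of the 3 dpf libraries (edgeR adjusted p = 0.0608 to 0.0808). The call of DKK3 (ENSDARG00000070683) needed each of 3 dpf replicates 1 and 2 and 5 dpf replicates 2 and 3 (0.0654 to 0.0908 without them in turn), and SFRP2 without any library except 5 dpf replicate 1 (0.0714 to 0.121).

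**Figure D2:**
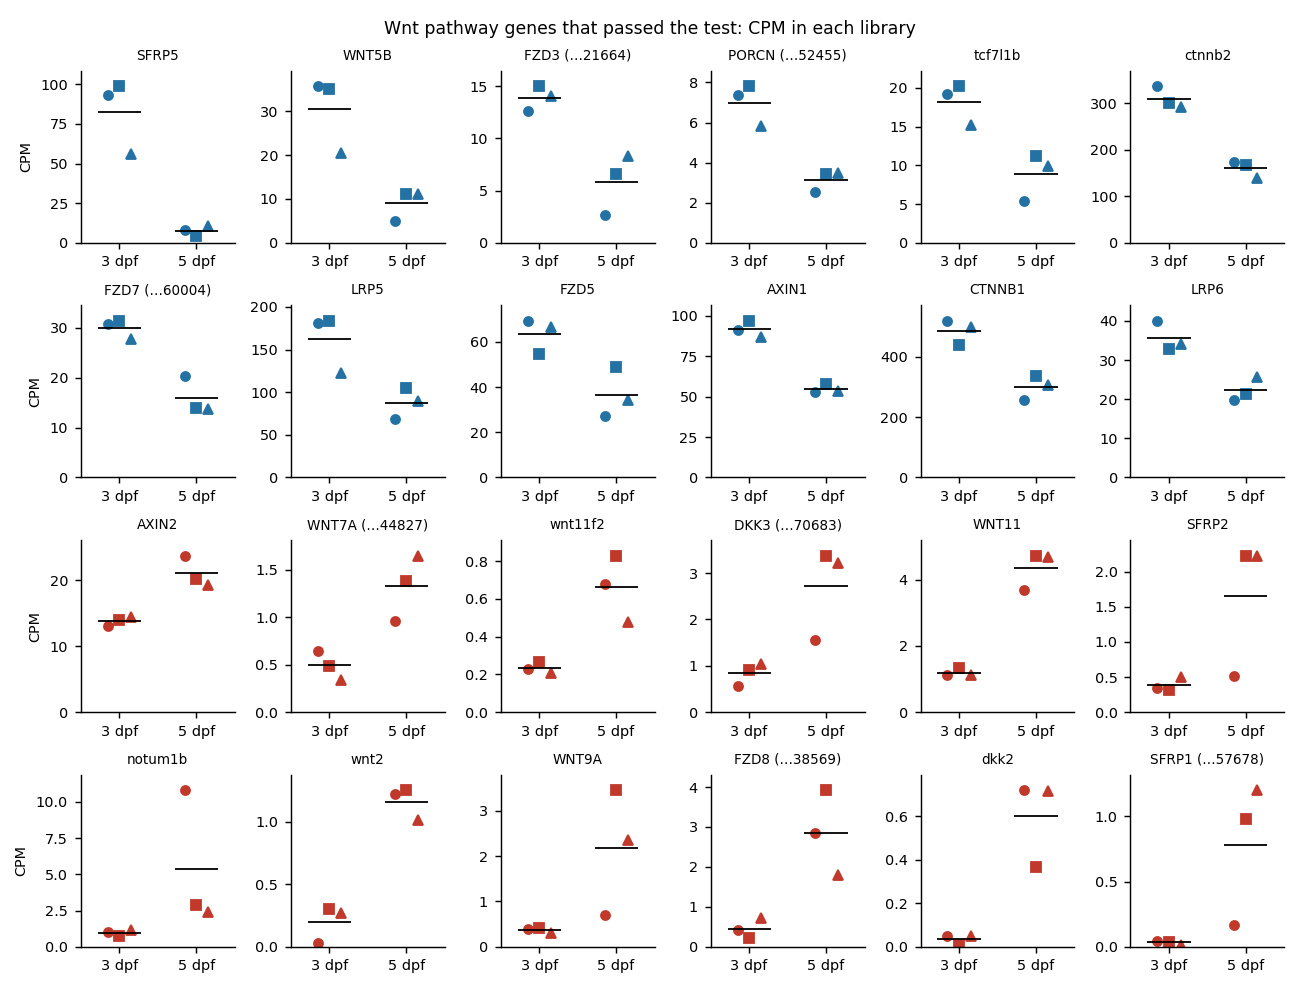
Level in each library (CPM, linear axes from 0, each panel on its own scale) of the 24 Wnt genes that passed the test, in blue where lower and in red where higher at 5 dpf. Circles, squares and triangles stand for replicates 1, 2 and 3 and lines for the mean of 3 libraries; SFRP5 was at 56.3 to 98.8 CPM at 3 dpf against 4.14 to 10.9 CPM, and notum1b was highest in 5 dpf replicate 1.

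Markers of several other cell types were higher at 5 dpf. Over all genes tested 18.1% rose and 14.1% fell, and below a mean of 5 CPM 22.2% rose and 3.34% fell. The counts of each marker list are given without a test against these shares. The largest list was that of mesenchyme and smooth muscle, which are cells beside the epithelium. Of the 22 markers tested, 17 rose and 1 fell, and 0 were at 0 at either age. Their summed level was 902.5, 830.9 and 585.6 CPM at 3 dpf and, at 5 dpf, 1447, 2989 and 3011 CPM, lowest at 5 dpf in replicate 1. The most abundant, TAGLN (ENSDARG00000033466), had a log2 fold change of -0.17 that did not pass (edgeR adjusted p = 0.809). Summed leukocyte markers, of which 5 of 6 rose, were at 1.35 to 3.18 CPM at 3 dpf and 12 to 33.7 CPM at 5 dpf, and exocrine pancreas markers, of which 5 of 5 rose and 1 was at 0 at an age, at 1.48 to 2.13 CPM and 138.4 to 513.7 CPM. Of the epidermis markers 4 of 6 rose and 0 fell, with sums of 2345 to 2792 CPM and 3507 to 5341 CPM. Most of these sums came from krt4, with a mean of 3251 CPM over the 6 libraries. The log2 fold change of krt4, 0.70, did not pass (edgeR adjusted p = 0.11). Of the endothelium markers 4 of 6 rose and 1 fell, and of those of enteric neurons and glia 3 of 12 rose and 0 fell. Skeletal muscle markers, of which 2 of 7 rose and 1 fell, summed to 1176 to 2080 CPM at 3 dpf and, at 5 dpf, 74.5, 876 and 908.8 CPM, lowest in replicate 1. The liver, pronephros and erythrocyte lists had 2 markers higher each, and 0, 2 and 1 lower. The part of these cells in the higher levels of Wnt genes was not tested. In bulk samples, fewer cells of a type and less RNA per cell cannot be told apart.

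**Figure D3:**
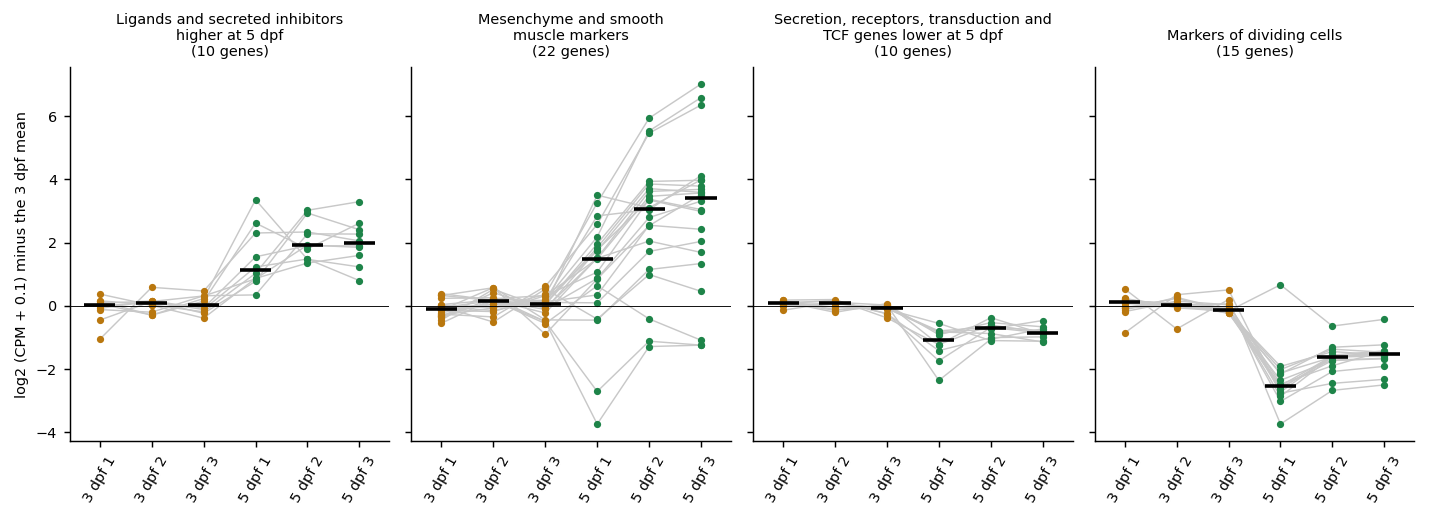
Level in each library relative to the 3 dpf mean, on the scale log2 of CPM plus 0.1, for the 10 secreted Wnt genes that rose, the 22 mesenchyme and smooth muscle markers, the 10 other Wnt genes that fell and the 15 markers of dividing cells. Points are genes, grey lines join the values of a gene and black bars are medians; the panels were drawn from genes already chosen by direction for the Wnt genes, and 5 dpf replicate 1 has the lowest median of the 5 dpf libraries in every panel.

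All 14 Frizzled receptor genes were tested, and 1 rose and 3 fell. The shares over all genes tested were 18.1% higher and 14.1% lower, and at a mean of 5 CPM or more 14.5% and 23.3%. The Frizzled counts were not tested against these shares. FZD5 was the most abundant per length, with 26 FPKM over the 6 libraries. It was at 69.3, 54.8 and 66.4 CPM at 3 dpf and, at 5 dpf, 27, 48.7 and 34.1 CPM, and fell by 0.79 on the log2 scale (SE 0.25, edgeR adjusted p = 0.0462). The gap between the lowest 3 dpf and the highest 5 dpf library was small. FZD7 (ENSDARG00000060004) was at 30.7, 31.4 and 27.7 CPM at 3 dpf and, at 5 dpf, 20.3, 13.9 and 13.7 CPM, and fell by 0.91 (SE 0.21, edgeR adjusted p = 0.0172). FZD3 (ENSDARG00000021664), a receptor known in vertebrates for planar polarity and axon guidance, was at 12.6, 15 and 14.1 CPM at 3 dpf and, at 5 dpf, 2.62, 6.61 and 8.35 CPM. It fell by 1.24 (SE 0.40, edgeR adjusted p = 0.0479), and 5 dpf replicate 1 was again the lowest.

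FZD8 (ENSDARG00000038569) was the Frizzled gene that rose. It was at 0.429, 0.221 and 0.715 CPM at 3 dpf and, at 5 dpf, 2.84, 3.92 and 1.79 CPM, with a log2 fold change of 2.64 (SE 0.53, edgeR adjusted p = 0.00964). The other FZD8 gene (ENSDARG00000045444) was at 34.3, 45.6 and 26 CPM at 3 dpf and, at 5 dpf, 71.3, 8.38 and 10.8 CPM. Its 5 dpf replicate 1 lay above every 3 dpf library and the other 5 dpf libraries below all of them. The log2 fold change of -0.23 did not pass (edgeR adjusted p = 0.846), and without that library it was -1.87 with an adjusted p of 0.00143.

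In GRCz11, FZD5 lies on chromosome 9 from 28232522 to 28234444 and FZD7 (ENSDARG00000060004) on chromosome 9 from 13352308 to 13355071. FZD3 (ENSDARG00000021664) lies on chromosome 20 from 35208855 to 35246150 and FZD8 (ENSDARG00000038569) on chromosome 2 from 47955160 to 47957673. FZD5 lost its call without any of the 3 dpf libraries (edgeR adjusted p = 0.0833 to 0.151) or 5 dpf replicate 3 (0.12), and FZD3 (ENSDARG00000021664) without any 3 dpf library (0.105 to 0.122) or 5 dpf replicate 2 (0.0957). The call of FZD7 (ENSDARG00000060004) needed each of 3 dpf replicates 1 and 2 and 5 dpf replicate 3 (0.0561 to 0.0728 without them in turn), and FZD8 (ENSDARG00000038569) without 3 dpf replicate 1 (0.0509). The other 10 Frizzled genes, including FZD1, FZD2, FZD4, fzd6 and FZD10, did not pass.

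Both LRP co-receptors fell. LRP5 was at 181.3, 183.6 and 122.7 CPM at 3 dpf and, at 5 dpf, 68.3, 104.8 and 89.4 CPM, and fell by 0.89 on the log2 scale (SE 0.25, edgeR adjusted p = 0.0319). LRP6 was at 40, 32.8 and 34.1 CPM at 3 dpf and, at 5 dpf, 19.7, 21.4 and 25.7 CPM, and fell by 0.68 (SE 0.19, edgeR adjusted p = 0.0305). LGR4, an R-spondin receptor, was the most abundant of the 5 co-receptor and R-spondin receptor genes per length (14.9 FPKM). It was at 141.1, 159.8 and 94.6 CPM at 3 dpf and, at 5 dpf, 97.2, 56.7 and 64.6 CPM. The ages overlapped through 3 dpf replicate 3 and 5 dpf replicate 1, and the log2 fold change of -0.86 did not pass (SE 0.29, edgeR adjusted p = 0.0574). Without 5 dpf replicate 1 it was -1.11 with an adjusted p of 0.00654. The related receptor lgr6 and ROR2, a receptor for ligands such as Wnt5, did not pass.

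LRP5 lies on chromosome 25 from 10640623 to 10769039, and LRP6 on chromosome 4 from 90048 to 100007. The call of LRP5 needed each of 3 dpf replicates 1 and 2 and 5 dpf replicate 3 (edgeR adjusted p = 0.0738 to 0.122 without them in turn), and LRP6 without any 3 dpf library or 5 dpf replicate 2 (0.0618 to 0.135).

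Both beta-catenin genes fell. CTNNB1 was the most abundant Wnt gene per length, at 143.9 ± 12.2 FPKM at 3 dpf and 88.8 ± 11.7 FPKM at 5 dpf (SD, n = 3 libraries). Its level was 519.6, 440 and 498.2 CPM at 3 dpf and, at 5 dpf, 257.4, 335.4 and 306.1 CPM, and it fell by 0.70 on the log2 scale (SE 0.21, edgeR adjusted p = 0.0409). The other copy, ctnnb2, was at 336.8, 300 and 291.2 CPM at 3 dpf and, at 5 dpf, 174, 168.2 and 139.7 CPM. It fell by 0.95 (SE 0.20, edgeR adjusted p = 0.0115), with clear space between the ages. Beta-catenin also links cadherins to the actin skeleton at cell junctions.

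AXIN1 and AXIN2, the scaffolds of the destruction complex, moved in opposite directions. AXIN1 was at 91.4, 96.8 and 87.1 CPM at 3 dpf and, at 5 dpf, 52.8, 57.7 and 53.2 CPM, and fell by 0.75 (SE 0.17, edgeR adjusted p = 0.0136). AXIN2, which is widely used as a readout of signalling because beta-catenin activates it, was at 13.1, 14 and 14.4 CPM at 3 dpf and, at 5 dpf, 23.7, 20.2 and 19.2 CPM. Its log2 fold change was 0.61 (SE 0.18, edgeR adjusted p = 0.0367), and it was the only Wnt gene at a mean of 5 CPM or more that rose. The call of AXIN2 held in 7 of the 15 alternative fits, and signalling itself was not measured. Per length AXIN1 remained above AXIN2 at 5 dpf, at 9.34 ± 0.468 FPKM against 2.98 ± 0.333 FPKM (SD, n = 3 libraries). APC, ZNRF3, NKD1 and gsk3bb, the other inhibitors at the membrane or in the cell, did not pass. APC came nearest, with a log2 fold change of -0.49 (edgeR adjusted p = 0.0822). The log2 fold change was -0.49 for ZNRF3, -0.00 for NKD1 and -0.28 for gsk3bb (edgeR adjusted p = 0.27, 0.991 and 0.762). Without 5 dpf replicate 1, that of ZNRF3 was -0.79 (0.0355) and that of NKD1 -0.32 (0.185).

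Of the 4 TCF/LEF factors, tcf7l1b fell. This factor, of a type that mainly represses targets, was at 19.2, 20.2 and 15.2 CPM at 3 dpf and, at 5 dpf, 5.34, 11.2 and 9.91 CPM. It fell by 1.04 on the log2 scale (SE 0.30, edgeR adjusted p = 0.0347), with 5 dpf replicate 1 lowest. TCF7L2, the most abundant of these factors per length (8.7 FPKM), was at 72.8, 73.7 and 63 CPM at 3 dpf and, at 5 dpf, 73.2, 55.9 and 51 CPM. The ages overlapped, and its log2 fold change of -0.22 did not pass (edgeR adjusted p = 0.441). LEF1 and TCF7 did not pass, and the factor sp5l was not tested.

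In GRCz11, CTNNB1 lies on chromosome 16 from 6182501 to 6205790 and ctnnb2 on chromosome 19 from 47975916 to 47997424. AXIN1 and AXIN2 lie on chromosome 3, from 43578975 to 43662495 and from 55627948 to 55650771, and tcf7l1b on chromosome 8 from 52106818 to 52230115. CTNNB1 and AXIN2 lost their calls without any single library except 5 dpf replicate 1 (edgeR adjusted p = 0.0689 to 0.156 and 0.0612 to 0.169). The calls of ctnnb2 and AXIN1 were lost without 3 dpf replicate 1 or 2 (0.0504 to 0.0669 and 0.0685 to 0.0709), and that of tcf7l1b without any 3 dpf library or 5 dpf replicate 3 (0.0542 to 0.11).

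Markers of dividing cells were lower at 5 dpf. Over all genes tested 18.1% rose and 14.1% fell, and at a mean of 5 CPM or more 14.5% rose and 23.3% fell. Of the 15 markers, 0 rose and 14 fell, and their summed level was 2852, 2680 and 2470 CPM at 3 dpf and, at 5 dpf, 469.1, 846.4 and 880.9 CPM. The proliferation marker mki67, the most abundant of them, fell by 1.89 on the log2 scale (SE 0.37, edgeR adjusted p = 0.00873). Among the gut epithelium markers 6 rose and 3 fell, and the most abundant, the chitinase gene chia.2, had a log2 fold change of 7.49 (SE 1.21, edgeR adjusted p = 0.00504). The part of dividing cells in the lower levels of Wnt genes was not tested.

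**Figure D4:**
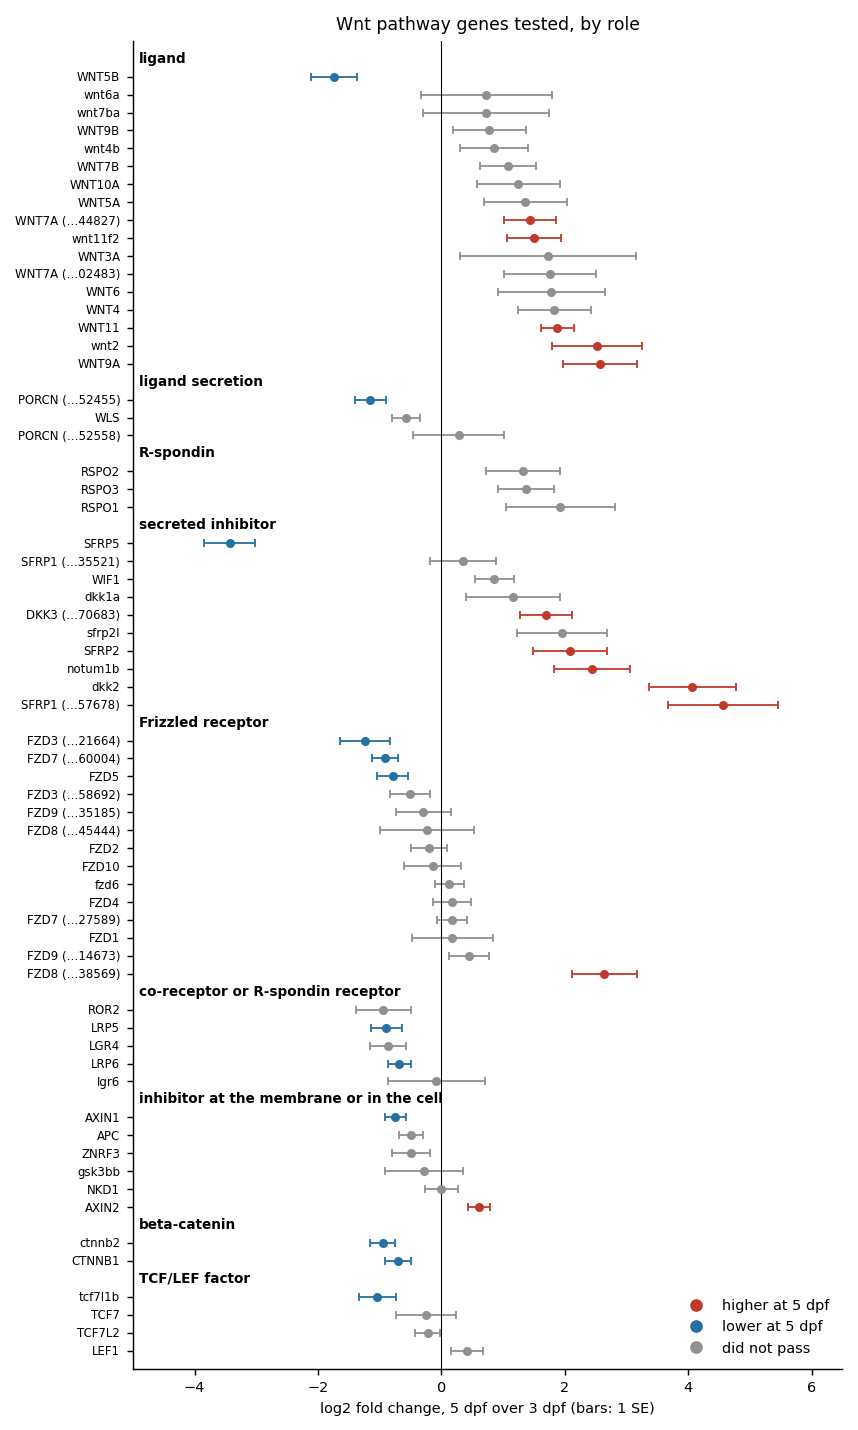
Log2 fold change from 3 to 5 dpf (points) with its SE (bars) for the 64 Wnt genes tested, grouped by role, in red where higher, blue where lower and grey where the edgeR test was not passed. Ligands and secreted inhibitors lie to the right of 0 apart from WNT5B and SFRP5, and both beta-catenins and both LRP co-receptors lie to the left.

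Pairs of genes with the same symbol were compared by the log2 ratio of their CPM, with 0.1 CPM added to each. With 3 libraries at each age, an exact two-sided permutation test cannot give less than p = 0.1, so no pair could pass. Among the 8 pairs, 6 reached that smallest value (0.133 adjusted over the 8 pairs). Each of these 6 pairs, like the WNT7A pair, holds a gene that passed the edgeR test on the same libraries. The ratios are therefore not separate support for a difference between copies. The log2 ratio of the scarcer to the more abundant gene differed by 3.32 for FZD8 at 5 against 3 dpf and by 2.25 for SFRP1. Their order depends on the added 0.1 CPM, since the scarcer SFRP1 gene was at 0.033 CPM at 3 dpf. The fitted log2 fold changes, without that addition, were 4.56 and 0.35 for the SFRP1 genes and 2.64 and -0.23 for the FZD8 genes. The difference was 1.26 for the PORCN genes and 1.06 for the FZD7 genes. For DKK3 and FZD3 it had the other sign, at -1.73 and -0.78. The scarcer DKK3 gene (ENSDARG00000103591) was not tested, with means of 0.0997 CPM at 3 dpf and 0.0797 CPM at 5 dpf. Both means lie below the added 0.1 CPM, so the DKK3 ratio also depends on that addition. In FZD7 the gene ENSDARG00000060004 fell, while ENSDARG00000027589 was at 15.2 ± 1.16 CPM at 3 dpf and 17.1 ± 4.97 CPM at 5 dpf (SD, n = 3 libraries). The ratios of the FZD9 genes (-0.77, p = 0.3) and the WNT7A genes (-0.19, p = 0.6) gave larger p-values in the same exact test. Reads that map to several places were not counted, so levels of closely similar copies are uncertain.

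The 5 dpf libraries differed among themselves. Replicate 1 lay below both other 5 dpf libraries in 43 of the 64 Wnt genes tested (67.2%), against 45.5% of all genes tested. It lay above both in 14 (21.9%), against 41.5% of all genes. The median log2 ratio of replicate 1 to the mean of the other 5 dpf libraries was -0.61 over the Wnt genes and -0.06 over all genes tested. Among the ligands, R-spondins and secreted inhibitors, replicate 1 was lowest in 23 of 30. The largest ratio was that of FZD8 (ENSDARG00000045444), at 2.88, followed by notum1b at 2.00 and PORCN (ENSDARG00000052558) at 1.23. With library size as the only scaling the log2 ratios shift by -0.97, since the TMM factor of replicate 1 was low, and with 0.1 CPM added to each level the ratios of FZD8 and notum1b become 1.90 and 1.05. Beside these, the ratios of PORCN (ENSDARG00000052558) and FZD9 (ENSDARG00000035185) alone remained above 0 under that scaling, at 0.55 and 0.02, and those of genes such as NKD1, ZNRF3 and LGR4 changed sign. These differences are between single libraries and have no test. Replicate 1 also had the highest share of mitochondrial counts, as given above. Its summed markers were the lowest at 5 dpf for some lists, such as mesenchyme and smooth muscle, and the highest for others, such as gut epithelium. The part of these in the ratios was not tested.

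**Figure D5:**
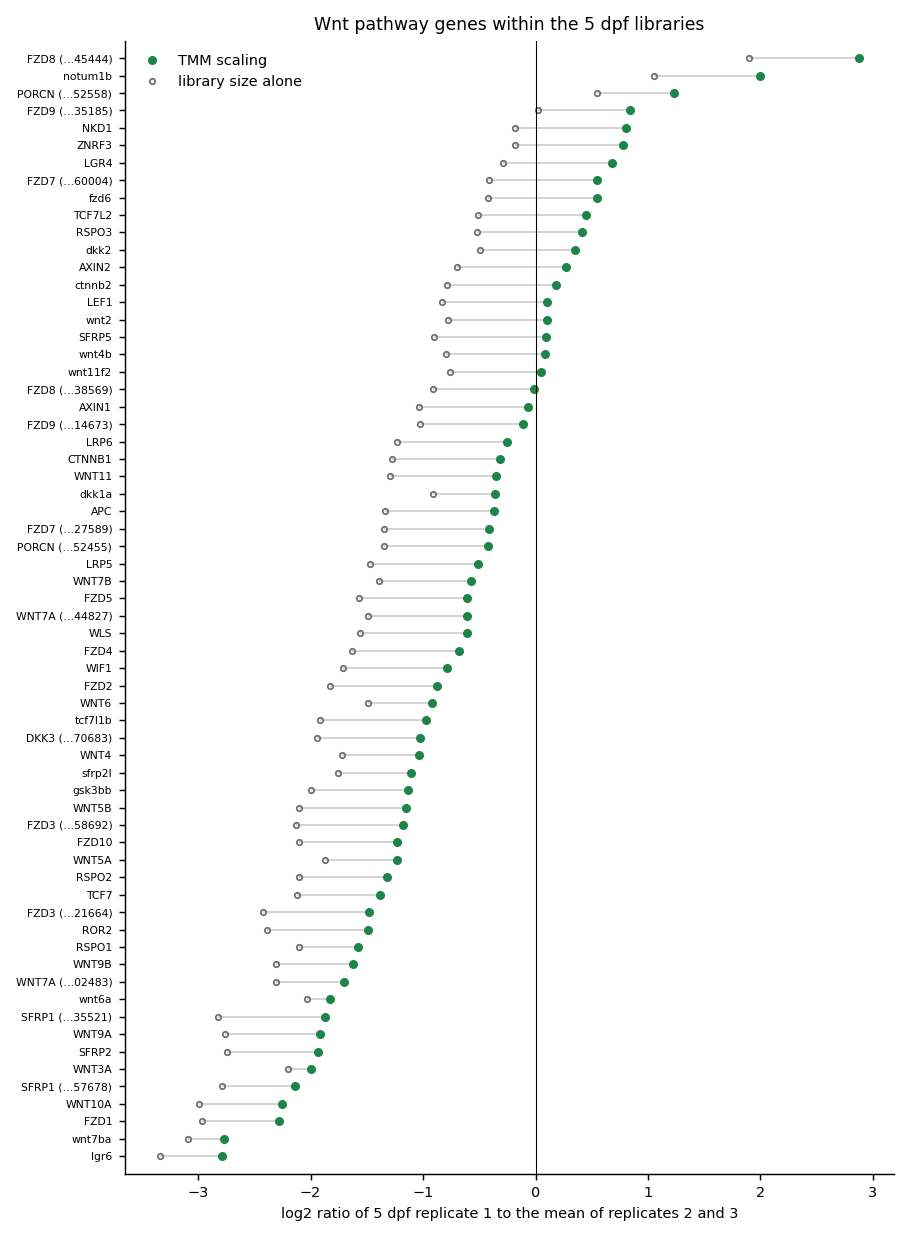
Log2 ratio of 5 dpf replicate 1 to the mean of 5 dpf replicates 2 and 3 for each Wnt gene tested, in order of size, with TMM scaling (filled) and with library size alone (open). FZD8 (ENSDARG00000045444) and notum1b had the highest ratios, 2.88 and 2.00, and stayed above 0 under both scalings.

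Other genes of the pathway, outside the naming rule, were taken from 5 lists. Of these 140 genes 136 were tested, 11 rose and 40 fell, with a median log2 fold change of -0.20. Over all genes tested 18.1% rose and 14.1% fell, and at a mean of 5 CPM or more 14.5% rose and 23.3% fell. The counts of each list are given as they stand, without a test against these shares. Genes are named where the mean of the higher age reached 5 CPM. Among 18 extracellular regulators, of which 16 were tested, 3 rose and 2 fell. RECK, a membrane protein that helps Wnt7 signalling, was at 1.62 ± 0.605 CPM at 3 dpf and 6.91 ± 3.25 CPM at 5 dpf (SD, n = 3 libraries), a log2 fold change of 2.10 (edgeR adjusted p = 0.0162). The notum2 gene, a relative of the Wnt deacylase, fell by 3.94 (edgeR adjusted p = 0.0246), from 8.59 ± 1.87 CPM to 0.546 ± 0.496 CPM (SD, n = 3 libraries). GPC4, a glypican that takes part in non-canonical Wnt signalling, fell by 0.99 (edgeR adjusted p = 0.015).

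Among 38 genes of signal transduction and the destruction complex, of which 36 were tested, 1 rose and 9 fell. The scaffold dvl2 (Dishevelled), which relays the signal from Frizzled, fell by 1.46 (edgeR adjusted p = 0.0455), dact2, a Dishevelled-binding protein, by 1.32 (0.0331) and amer1, which recruits Axin to the membrane, by 1.24 (0.0397). GSK3B, which lies outside the naming rule under that symbol, was at 109.1 ± 1.46 CPM at 3 dpf and 98.1 ± 13.4 CPM at 5 dpf (SD, n = 3 libraries) and did not pass (edgeR adjusted p = 0.553).

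Among 27 nuclear cofactors, 1 rose and 14 fell, with a median log2 fold change of -0.67. The Groucho co-repressor tle2a fell by 1.96 (edgeR adjusted p = 0.00603), the beta-catenin co-activator pygo2 by 1.44 (0.00582) and the chromatin ATPase RUVBL2 by 1.42 (0.00354). TCF7L1, the other gene of that type, was not called, with a log2 fold change of -0.17 (edgeR adjusted p = 0.632).

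Among 27 planar polarity and non-canonical genes 1 rose and 6 fell, and CELSR2 (-1.36, edgeR adjusted p = 0.0107), PTK7 (-1.10, 0.0253) and VANGL2 (-1.10, 0.00603) had the largest decreases at 5 CPM or more. Among 30 genes reported as targets of the pathway in vertebrates, 5 rose and 9 fell. EPHB3 (ENSDARG00000031548), a receptor that sorts cells along the mammalian crypt, had a log2 fold change of 1.76 (edgeR adjusted p = 0.00581), the transcription regulator id2b of 1.34 (0.00655) and MYC (ENSDARG00000045695) of 1.12 (0.0087). Below 5 CPM, and named after their values were seen, SMOC2 among the targets and tmem88a among the extracellular genes had larger fitted log2 fold changes, 4.04 and 3.88 (edgeR adjusted p = 0.0032 and 0.0137), from means of 0.0883 and 0.0168 CPM at 3 dpf. MYCN fell by 2.03 (edgeR adjusted p = 0.00193), from 61.4 ± 13.1 CPM to 15 ± 1.99 CPM (SD, n = 3 libraries). The proneural factor ascl1a fell by 1.94 (0.00713) and BIRC5, which is needed for cell division, by 1.71 (0.0032).

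Without 3 dpf replicate 1, 4 of these 140 genes rose and 13 fell, and without 3 dpf replicate 2, 5 rose and 18 fell. Without 3 dpf replicate 3 or 5 dpf replicate 2, 7 and 6 rose, and without 5 dpf replicate 1, 21 rose. The calls over all genes also varied with these libraries, as given above. The named genes RECK, notum2, GPC4, dvl2, dact2, amer1, PTK7, CELSR2 and MYC (ENSDARG00000045695) lost their calls without 3 dpf replicate 1 (edgeR adjusted p = 0.0502 to 0.125). All of these except CELSR2 and MYC (ENSDARG00000045695) also lost them without 3 dpf replicate 2 (0.0539 to 0.0984), and notum2, dvl2, dact2, amer1 and PTK7 without 3 dpf replicate 3 (0.0543 to 0.106). RECK, dvl2 and amer1 lost theirs without 5 dpf replicate 2 (0.0524 to 0.0734), and RECK, notum2, dvl2 and dact2 without 5 dpf replicate 3 (0.0504 to 0.0901).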

How the data were processed

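The authors deposited a raw count for each gene and library. Per the file headers, read pairs were counted over exons by featureCounts 1.6.3, strand setting 2, with GRCz11 genes of Ensembl release 115, and multi-mapping reads and reads shared between genes were dropped. Subread 1.6.3, STAR 2.7.11 and Trimmomatic 0.38 stand in the submitters' processing notes. From the counts, edgeR 4.0.16 in R 4.3.3 (limma 3.58.1) gave TMM factors, CPM scaled by them, FPKM from the files' exon lengths, and the quasi-likelihood F-test (two-sided) for age, with no covariate. Low genes were removed by filterByExpr (minimum count 10, minimum total 15), and the Benjamini-Hochberg adjustment covered all 22386 genes. The SE is the log2 fold change divided by the square root of F. Genes named in the text are those that passed and the most abundant of each role per length. Up to 3 called genes with the largest changes in each direction were named from each pathway list. These were at 5 CPM or more at the higher age. The most abundant marker is named for the gut epithelium, mesenchyme and smooth muscle, epidermis and dividing cell lists. The top genes of the other marker lists are not described. APC, ZNRF3, NKD1, gsk3bb, WIF1, WNT4, RSPO1, RSPO2, SMOC2, tmem88a and a few gene copies were chosen after their values were seen. Members and lists were chosen with earlier results of these data known. The fit was repeated with library size, upper quartile or RLE scaling, without the filter, with 1 CPM in 3 libraries as the filter, with DESeq2 1.42.0, with a replicate block, and without mitochondrial genes, each library in turn, or both 5 dpf replicate 1 and 3 dpf replicate 3. Libraries are pools, and no label says whether they came from separate clutches, so p-values measure only the spread between these pools. Counting limits cover counting error only. Simulated counts with known changes were used to check the fit. They had the same dispersion in every gene and no outlying library, so the check does not cover a library such as 5 dpf replicate 1. Sequences are not printed here.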

Additional observations from a re-analysis of the deposited data

How the results depend on the processing

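The number of genes called over all genes tested was 7194, against 3849 in the fit scaled by library size alone and 11902 in the fit with 5 dpf replicate 1 and 3 dpf replicate 3 left out. Leaving out each library gave 3003 to 10628. The 12 Wnt genes higher at 5 dpf became 6 with library size alone, 6 with a filter of 1 CPM in 3 libraries and 27 with both libraries left out, and 4 to 27 with each library left out. The 12 lower became 6 with upper quartile scaling, 4 with library size alone, 7 with the 1 CPM filter and 7 with a replicate block, and 1 to 15 with each library left out. The median over Wnt genes, 0.32, was -0.11 with the 1 CPM filter, which removes the scarce genes, 0.61 with both libraries left out and 0.22 to 0.52 with each library left out. For the other pathway genes, 11 higher became 4 with library size alone, 7 with the block, 23 with both left out and 4 to 21 with each library left out, and 40 lower became 11 with library size alone and 13 to 46 with each library left out. The replicate block gave 8 Wnt genes higher; deviations of same-numbered libraries from the mean of their age correlated across genes at 0.092, -0.217 and 0.193, and the numbers were not taken as pairs. TAGLN (ENSDARG00000033466) changed sign, to 0.01 without 3 dpf replicate 1 and 0.15 without 5 dpf replicate 3, with values from -0.76 to 0.15 over the libraries left out. Upper quartile scaling moved the median of all genes from 0.09 to 0.22, and the share of all calls that were higher from 56.2% to 65.3%, as library size alone also did (65.3%). Signs of the 24 called Wnt genes held in each alternative in which they were tested, and 7 were not tested under the 1 CPM filter. The causes were not tested.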
